A study of Mus musculus with 42 samples.

Results

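Cytochrome P450 genes were followed through the RNA sequencing (RNA-seq) of *Tug1*-knockout and wild-type mice. *Tug1* is a long noncoding RNA locus, and the members described here are the rows of the deposited table whose gene symbol has the form of a cytochrome P450 gene (Cyp, a family number, a subfamily letter and a gene number) or is *Cyp51*. *Cyp11a1* and *Cyp17a1* were left out of the members. The rule used symbols and no measured value, and it found 89 of the 26653 genes in the table. A further 10 rows with a symbol of P450 type fell outside it, 3 of them pseudogenes, and the others include *Cyp4a12a* and *Cyp3a41a*, whose symbols end in a letter.

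Polyadenylated RNA of 42 samples was measured, 22 from wild-type mice and 20 from *Tug1*-/- mice that carry the Tug1_tm1.1Vlcg allele on both chromosomes. In this allele the gene body is replaced by a *lacZ* reporter behind the endogenous promoter and first exon, so the knockouts lack the RNA and its underlying DNA and also carry the reporter. All samples were male and of a C57BL/6J background. Liver, spleen, eyes, heart and MEFs (embryonic fibroblasts at passage 2) had 3 wild-type and 3 knockout samples each, testes 4 and 3, and prostate 3 and 2. The ages of the tissue donors are not given in the sources used here.

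The table holds 1 value per genotype and tissue, in which the authors had pooled the samples. No spread between mice, no standard error and no test across samples can therefore be given for any value below, and sequencing depth is unknown. Values are in FPKM, a level scaled to transcript length and to the number of mapped fragments, and pairs of values are given with the wild type first. A change is log2((KO + 0.1)/(WT + 0.1)), and the added constant shrinks the change of low genes. A member counts as past the limit where it differed by more than 1.5-fold (0.585 on the log2 scale) and the mean of both genotypes was at least 1 FPKM. This is a limit of size and not of significance. Because the mean includes the higher genotype, a member can pass the minimum through 1 genotype alone, and the counts below are descriptions. These are bulk samples, so fewer cells of a type and less RNA per cell cannot be told apart.

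*Tug1* itself was between 11.2 and 27.7 FPKM in the wild-type tissues and between 0.00753 and 0.402 FPKM in the knockouts. The defining markers of each tissue were present in both genotypes, with *Apoa1* at 12014 and 13744 FPKM in wild-type and knockout liver. Of the liver markers only *Tat* was past the limit, at 1289 FPKM in wild-type and 2301 FPKM in knockout liver. The liver values are those the table lists, where 31 genes have a status of failed or too little data in that tissue and no member is among them.

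Cytochrome P450 enzymes are heme proteins that insert an oxygen atom into their substrates, with electrons passed on by cytochrome P450 oxidoreductase or, in mitochondria, by ferredoxin. Enzymes of the families 1 to 3 oxidise mainly drugs and other foreign compounds and are most abundant in hepatocytes around the central vein. Others make or break down bile acids, cholesterol, steroid hormones, vitamin D, retinoic acid and fatty acids. Many subfamilies lie in rows of duplicated genes, and several mouse liver members differ strongly between the sexes.

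A part of the sequence that P450 enzymes have in common is the loop that holds the heme iron through a cysteine. The pattern of phenylalanine, glycine, cysteine and glycine at fixed distances was searched in the translated coding sequence of each member, 1 GENCODE vM21 transcript per gene on GRCm38. It was found in 84 of 89 members, between 51 and 72 residues before the end of the protein. *Cyp20a1*, *Cyp2b10*, *Cyp2s1*, *Cyp3a59* and *Cyp8b1* did not hold these exact residues. The 30 coding bases of the loop are shown for members on which the liver results turn, 5′ to 3′ on the coding strand, with the cysteine codon in capitals.
Cyp2e1: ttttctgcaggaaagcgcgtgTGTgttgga
Cyp3a11: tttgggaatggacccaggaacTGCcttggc
Cyp2c37: ttctcaacagggaaacggataTGTgcagga
Cyp2c50: ttctcaacaggaaaacggataTGTgcagga
Cyp2c54: ttctcaacagggaaacggataTGTgcagga
Cyp2c39: ttctcagcaggaaaacgtgttTGTgctgga
Cyp2a4: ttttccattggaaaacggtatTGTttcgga
Cyp2a5: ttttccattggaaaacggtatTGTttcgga
Cyp2b9: ttctccacaggaaagcgcattTGTcttggt
Cyp4a31: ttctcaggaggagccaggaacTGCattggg
Cyp7a1: tttggatcaggagctacaataTGTcctgga
Cyp39a1: tttggaggcgggaagttccagTGTcctgga
Cyp51: tttggagctgggcgtcatcgtTGTgttgga
The 84 loops made 71 different sequences. *Cyp2a4* and *Cyp2a5* had the same bases here, as did *Cyp2c37* and *Cyp2c54*, and *Cyp4a10*, *Cyp4a31* and *Cyp4a32* shared 1 loop as well. The cysteine was coded by TGC in 49 members and by TGT in 35. Copies this alike matter for the values below, because short reads from identical stretches can be credited to either gene.

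In liver, 63 of the 89 members had a mean of at least 1 FPKM, and 36 members reached that level in liver and in no other tissue measured. Of the 63, 8 were higher in the knockout by more than 1.5-fold and 10 were lower. That is 12.7% and 15.9% of them, beside 2.55% of the 11711 genes of liver for higher values and 2.25% for lower ones. The median change of the 63 members was -0.12, beside -0.02 for all genes, and 45 of the 63 changes were below 0. With each genotype scaled to the sum of all its liver values, the median of all genes moved to 0.14. That of the members moved to 0.03, with 29 of 63 changes below 0. With the genes of failed status left out of that sum, 37 of 63 were below 0 and the members' median was -0.07. With changes centred on the median of all genes, 44 of 63 were below 0 and the members' median was -0.11. The sign of the members' median thus depended on the scaling, and it turned only under scaling to the full sum. The median of all genes moved along, to 0.04 with the genes of failed status left out. Under each scaling the members' median lay below that of all genes, a distance that a common shift leaves nearly unchanged. The largest difference was that of *Cyp2a4*, at 1.26 FPKM in wild-type and 75.1 FPKM in knockout liver. Members that stood lower in the deposited values include *Cyp2c37*, *Cyp2c50* and *Cyp2c54*, neighbours on chromosome 19, and *Cyp8b1*, which directs bile acid synthesis to cholic acid. After scaling to the sum *Cyp2c37* stayed past the limit at -0.74, while *Cyp2c50* at -0.51, *Cyp2c54* at -0.58 and *Cyp8b1* at -0.50 were within it. Under the other scalings *Cyp2c50*, *Cyp2c54*, *Cyp8b1* and also *Cyp3a59* stayed lower past the limit.

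**Figure D1:**
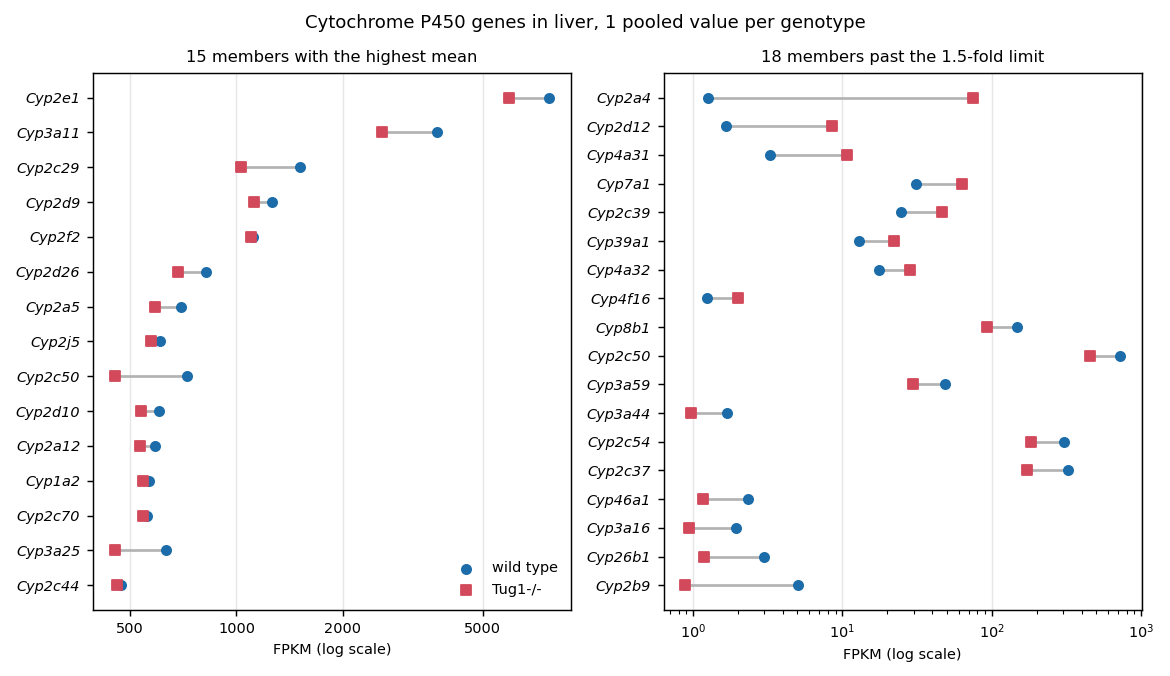
FPKM in wild-type (blue circles) and *Tug1*-/- liver (red squares), 1 pooled value each on a log axis, for the 15 members with the highest mean (left) and the 18 past the 1.5-fold limit (right). As deposited, all 15 abundant members lie lower in the knockout (9 of 15 after scaling to the sum), and *Cyp2a4* spans 1.26 to 75.1 FPKM.

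The most abundant P450 mRNA in liver was that of *Cyp2e1*, an enzyme that oxidises ethanol and other small molecules. It stood at 7703 FPKM in wild-type and 5937 FPKM in knockout liver, a change of -0.38. *Cyp3a11*, the chief drug-oxidising member of its subfamily and a target of the pregnane X receptor, had 3716 and 2594 FPKM, a change of -0.52. *Cyp2c29* had 1512 and 1029 FPKM, a change of -0.56, just within the limit. These 3 abundant mRNAs were lower in the knockout without passing 1.5-fold. The level of *Cyp2f2*, known as an enzyme of periportal hepatocytes and of lung, was 1115 FPKM in wild-type and 1099 in knockout liver. *Cyp1a2*, the main liver target of the aryl hydrocarbon receptor, had 564 and 542 FPKM. The differences were 1.01-fold and 1.04-fold.

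Among the 15 members with the highest mean, all 15 changes were below 0 in the deposited values, from -0.02 for *Cyp2f2* to -0.67 for *Cyp2c50*, and 9 of 15 were below 0 after scaling to the sum. Centred on the median of all genes, all 15 stayed below 0, and with the genes of failed status left out of the sum 11 did. The other deposited changes of this group lay at -0.17 for *Cyp2d9*, -0.26 for *Cyp2d26*, -0.25 for *Cyp2a5*, -0.09 for the epoxygenase *Cyp2j5* and -0.17 for *Cyp2d10*. They lay at -0.14 for *Cyp2a12*, -0.04 for *Cyp2c70*, -0.48 for *Cyp3a25* and -0.04 for *Cyp2c44*. Summed over the 89 members, P450 mRNA was 25038 FPKM in wild-type and 20303 FPKM in knockout liver, which is 81.1% of the wild-type sum. *Cyp2e1* alone made up 30.8% of the wild-type sum and 29.2% of the knockout sum. With the scaling to the sum it was 90.5% of the wild-type sum, and 9 members were then higher and 6 lower past the limit.

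By subfamily, 3 Cyp3a and 3 Cyp2c genes were among the 10 members lower in the deposited values, and 2 and 1 were among the 6 that stayed lower after scaling to the sum. Of 6 measured Cyp3a members, 3 were lower as deposited, none was higher, and the summed level was 4494 FPKM in wild-type and 3176 FPKM in knockout liver. *Cyp3a59* had 48.4 and 29.9 FPKM, a change of -0.69 that came to -0.54, within the limit, after scaling to the sum. *Cyp3a16* had 1.94 and 0.933 FPKM and *Cyp3a44* had 1.67 and 0.967 FPKM, both close to the minimum. *Cyp3a13*, the member outside the gene row of this subfamily, had 93.9 and 98.2 FPKM. The 5 measured members within the Cyp3a row on chromosome 5 (145345287 to 146113285, mm10) all had changes below 0 under each scaling tried, with a median of -0.69 as deposited and -0.54 after scaling to the sum.

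Of 12 measured Cyp2c members, which mainly hydroxylate and epoxidise drugs and fatty acids, 3 were lower and 1 was higher in the deposited values, and 1 was lower and 1 higher after scaling to the sum. *Cyp2c37* was at 323 FPKM in wild-type against 173 FPKM in knockout liver. *Cyp2c50* had 723 and 454 FPKM. *Cyp2c54* had 303 and 182 FPKM. Their changes were -0.90, -0.67 and -0.73, and the sum of the 3 was 1349 and 809 FPKM. The genes lie side by side on chromosome 19 of mm10, *Cyp2c37* from 39992424 to 40012243, *Cyp2c54* from 40037941 to 40073811 on the minus strand and *Cyp2c50* from 40089688 to 40113950. Their coding sequences of 1470 bases were between 95.1% and 96.1% identical in pairs. In the same row, which runs from 39007019 to 40187333 with 14 members, *Cyp2c39* stood on the other side, at 24.8 FPKM in wild-type and 46.3 FPKM in knockout liver. *Cyp2c39* is 94.2% identical to *Cyp2c38*, which had 21.04 and 23.09 FPKM. *Cyp2c70*, at the end of the row, was at 557 and 542 FPKM.

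**Figure D2:**
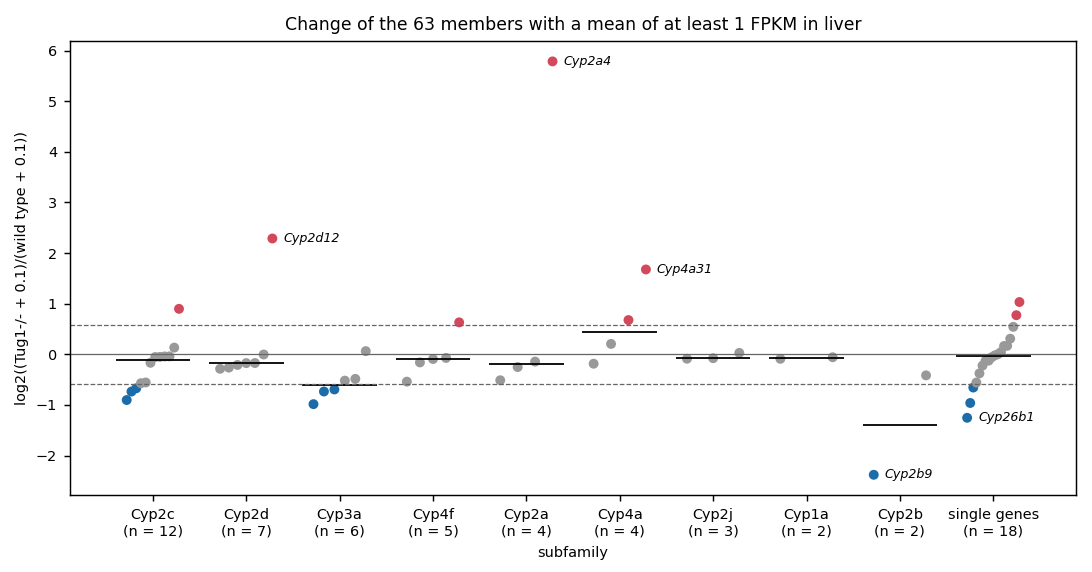
Change in liver, log2((KO + 0.1)/(WT + 0.1)), of the 63 members with a mean of at least 1 FPKM, by subfamily; each point is a gene, black bars are medians, dashed lines mark 1.5-fold, and subfamilies with 1 measured gene are joined at the right. Red points are higher and blue points lower past the limit; *Cyp2a4* lies at 5.79 and *Cyp2b9* at -2.38.

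*Cyp2a4* and *Cyp2a5* are a pair of near copies on chromosome 7. *Cyp2a4* (ENSMUSG00000074254.3) encodes a testosterone 15-alpha-hydroxylase of female-biased expression and lies from 26307190 to 26315088 on the plus strand of mm10, and *Cyp2a5* (ENSMUSG00000005547.8), a coumarin 7-hydroxylase, from 26835305 to 26843548. Their coding sequences of 1482 bases differ at 23 bases, an identity of 98.5%, and 12 residues differ between the proteins. The stretch with the most differences, bases 550 to 669 counted from the A of the start codon, is shown with the 6 differing bases in capitals.
Cyp2a4: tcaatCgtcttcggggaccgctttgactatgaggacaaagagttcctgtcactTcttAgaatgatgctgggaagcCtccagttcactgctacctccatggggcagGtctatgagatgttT
Cyp2a5: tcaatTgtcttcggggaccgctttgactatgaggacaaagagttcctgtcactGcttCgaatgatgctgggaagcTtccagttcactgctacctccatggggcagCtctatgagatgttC
The genes are also alike upstream. RefSeq promoter windows of 300 bases around the start (GRCm38.p6) were 98.3% identical, with 294 of 299 aligned bases the same. The 216 aligned bases that end before either annotated start, chr7:26306943-26307158 for *Cyp2a4* and chr7:26835089-26835304 for *Cyp2a5*, both on the plus strand, are shown with the 4 differing bases in capitals.
Cyp2a4: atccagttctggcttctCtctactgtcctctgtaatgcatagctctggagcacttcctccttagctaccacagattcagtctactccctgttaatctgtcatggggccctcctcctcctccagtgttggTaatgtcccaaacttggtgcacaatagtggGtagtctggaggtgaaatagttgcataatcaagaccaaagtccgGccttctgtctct
Cyp2a5: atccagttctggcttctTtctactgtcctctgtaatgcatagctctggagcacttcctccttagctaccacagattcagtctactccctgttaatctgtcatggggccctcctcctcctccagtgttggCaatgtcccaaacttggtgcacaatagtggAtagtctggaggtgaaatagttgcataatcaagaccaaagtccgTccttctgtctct

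Despite this likeness the deposited values of the pair went apart. *Cyp2a4* was at 1.26 FPKM in wild-type against 75.1 FPKM in knockout liver, a 55.2-fold difference on the scale with the pseudocount. *Cyp2a5* had 697 and 586 FPKM. The sum of the pair was 698 FPKM in wild-type and 661 FPKM in knockout liver, and the share of *Cyp2a4* in it was 0.181% and 11.4%. How the authors' program divided reads that match both genes is not given in the sources used here, so the split between the copies is uncertain. Of the 100-base windows of the *Cyp2a4* mRNA, 11.2% occur unchanged in a transcript of another gene, mostly *Cyp2a5*, and the remaining windows hold at least 1 base that tells the copies apart. *Cyp2a12* and *Cyp2a22*, the other members of the subfamily, had 589 and 533 FPKM and 9.11 and 6.36 FPKM.

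Other liver members that are female-biased in mice did not follow *Cyp2a4*. Of the 5 measured members of a list of 7 such genes, *Cyp2a4* was higher in the knockout and 3 were lower, and the median change of the 5 was -0.73, beside -0.02 for all genes of liver. *Cyp2b9* was at 5.04 FPKM in wild-type against 0.888 FPKM in knockout liver, a change of -2.38. *Cyp3a16* and *Cyp3a44* were the others that were lower, and *Cyp2c40* was within the limit at 8.52 and 8.23 FPKM. The 3 lower members were each under 1 FPKM in the knockout and reached the minimum through the wild-type value. Their count and the median of the list therefore rest in part on that minimum, and none of the 3 had a mean of 5 FPKM. *Cyp2b10*, a target of the constitutive androstane receptor in the same gene row of chromosome 7, had 3.84 and 2.86 FPKM. The male-biased members *Cyp2d9* and *Cyp7b1* had changes of -0.17 and -0.12. Among regulators of sex-biased liver genes, *Bcl6*, a repressor, was at 27.1 FPKM in wild-type against 10.6 FPKM in knockout liver, *Stat5b* had 23.8 and 21.3 FPKM, and *Cux2* was at 0.196 and 0.239 FPKM. The part of these regulators in the P450 values was not tested.

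Members that make and break down bile acids and oxysterols were found on both sides in liver. Of 6 such members, 2 were higher, 2 were lower and the median change was -0.06 in the deposited values. After scaling to the sum 2 were higher, *Cyp46a1* alone was lower and the median was 0.10. *Cyp7a1*, the rate-limiting 7-alpha-hydroxylase of the classical bile acid pathway (chromosome 4, 6265612 to 6275633, minus strand), was at 30.9 FPKM in wild-type against 63.3 FPKM in knockout liver. *Cyp39a1*, an oxysterol 7-alpha-hydroxylase, had 12.8 and 22.0 FPKM. Both were higher, by 2.05-fold and 1.71-fold. *Cyp8b1*, the sterol 12-alpha-hydroxylase, was at 147 FPKM in wild-type against 93.1 FPKM in knockout liver. *Cyp46a1*, a cholesterol 24-hydroxylase best known from neurons, had 2.34 and 1.16 FPKM. The enzymes of the alternative pathway were at like levels in both genotypes, with *Cyp27a1* at 389 and 390 FPKM and *Cyp7b1* at 213 and 196 FPKM. *Nr0b2*, which encodes the corepressor SHP, a known brake on *Cyp7a1* and *Cyp8b1*, was at 47.6 FPKM in wild-type against 25.6 FPKM in knockout liver, and its part in these values was not tested. *Cyp51*, the lanosterol demethylase of cholesterol synthesis, had 68.1 and 99.3 FPKM, a change of 0.54 that was within the limit as deposited and past it, at 0.70, after scaling to the sum.

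The Cyp4a enzymes hydroxylate the end carbon of fatty acids and are known targets of the receptor PPAR alpha. Of 4 members 2 were higher in the knockout and none was lower, with a median change of 0.44. *Cyp4a31* was at 3.26 FPKM in wild-type against 10.7 FPKM in knockout liver. *Cyp4a32* had 17.6 and 28.2 FPKM. Their near copy *Cyp4a10* was at 136 and 119 FPKM, and *Cyp4a14* at 154 and 178 FPKM. *Cyp4a10*, *Cyp4a31* and *Cyp4a32* were between 96.0% and 97.2% identical in their coding sequences, and their sum was 156 FPKM in wild-type and 158 FPKM in knockout liver. *Ppara* had 148 and 112 FPKM. *Cyp4a32* shared 20.1% of its 100-base windows with another gene.

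The P450 members listed as targets of the receptors CAR and PXR had changes below 0 throughout, under each scaling tried. Of the 5 members listed, *Cyp2c37* was past the limit, and *Cyp3a11*, *Cyp2c29*, *Cyp2c55* and *Cyp2b10* were within it, with a median change of -0.56 over the 5. *Cyp2c55* was at 10.6 FPKM in wild-type against 7.13 FPKM in knockout liver. The receptor gene *Nr1i3* (CAR) had 91.8 and 64.8 FPKM, and *Nr1i2* (PXR) had 45.3 and 45.4 FPKM. Members listed for pericentral hepatocytes numbered 8, of which 3 were lower and *Cyp7a1* was higher. Over all genes of liver 2.25% were lower and 2.55% higher. The median change was -0.47, beside -0.02 for all genes. The 3 lower members were the neighbours *Cyp2c37*, *Cyp2c50* and *Cyp2c54*. *Cyp2c29* and *Cyp2e1* were lower within the limit, and *Cyp1a2* and *Cyp27a1* had changes of -0.06 and 0.00. *Cyp2c37* and *Cyp2c29* are in both lists. After scaling to the sum *Cyp2c37* was the 1 lower member of the pericentral list, and its median was -0.31 with 5 of 8 changes below 0.

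The remaining groups of liver members held few differences past the limit. *Cyp26b1*, which breaks down retinoic acid, was at 2.97 FPKM in wild-type against 1.19 FPKM in knockout liver, while *Cyp26a1* had 27.8 and 31.2 FPKM. *Cyp2d12* was at 1.65 FPKM in wild-type against 8.46 FPKM in knockout liver, and it was the only 1 of 7 measured Cyp2d members past the limit. Its nearest copy, *Cyp2d9*, is 92.1% identical and was at 1261 and 1119 FPKM. *Cyp4f16* had 1.24 and 1.98 FPKM, and the other 4 measured Cyp4f members, enzymes that inactivate leukotrienes and related lipids, were within the limit. The Cyp2j members and *Cyp2c44*, epoxygenases of arachidonic acid, had a median change of -0.06 over 4 measured genes. *Cyp2r1*, a vitamin D 25-hydroxylase, had 23.5 and 24.2 FPKM, and *Cyp24a1* was listed at 0 in both genotypes.

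Of 7 genes for electron donors and heme supply, 1 passed the limit in liver, and the median change was -0.04. *Alas1*, the first enzyme of heme synthesis, was at 139 FPKM in wild-type against 522 FPKM in knockout liver, 3.75-fold higher. *Por*, the oxidoreductase that feeds the microsomal enzymes, had 201 and 266 FPKM. None of 14 other genes of drug metabolism was past the limit, with 13 measured and a median change of 0.11. Among 9 clock and PAR bZIP genes, *Ciart* was higher at 11.3 and 18.8 FPKM and *Nfil3* lower at 13.2 and 8.28 FPKM, while *Dbp* had 67.2 and 67.5 FPKM. *Fgf21*, a hormone of fasting, had 1.48 and 6.47 FPKM. *Lcn2* and *Saa2*, genes of the acute phase response, were higher at 3.18 and 6.03 FPKM and at 20.4 and 31.7 FPKM. The macrophage markers summed to 102 FPKM in wild-type and 127 FPKM in knockout liver, with 1 of 3 past the limit. *Cyp17a1*, which is no member here, had 5.87 and 27.9 FPKM in liver, while *Cyp11a1* and *Hsd3b1*, markers of steroid-making cells, were at or below 0.0305 FPKM there. The part of these genes in the P450 values was not tested.

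Sequence shared between copies was measured for each member as the percentage of the 100-base windows of its mRNA that occur unchanged in a transcript of another GENCODE vM21 gene. Of the 63 members measured in liver, 35 had at least 1 such window and 28 had none. In the deposited values, 5 of the 35 were higher and 7 lower past the limit, and among the 28, 3 were higher and 3 lower. The 3 higher members without a shared window were *Cyp7a1*, *Cyp2c39* and *Cyp39a1*, and the 3 lower ones were *Cyp26b1*, *Cyp46a1* and *Cyp8b1*, so that no 100-base stretch of these 6 mRNAs is found in another gene. The highest share was that of *Cyp2c40* with 44.1%, whose level was 8.52 and 8.23 FPKM.

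**Figure D3:**
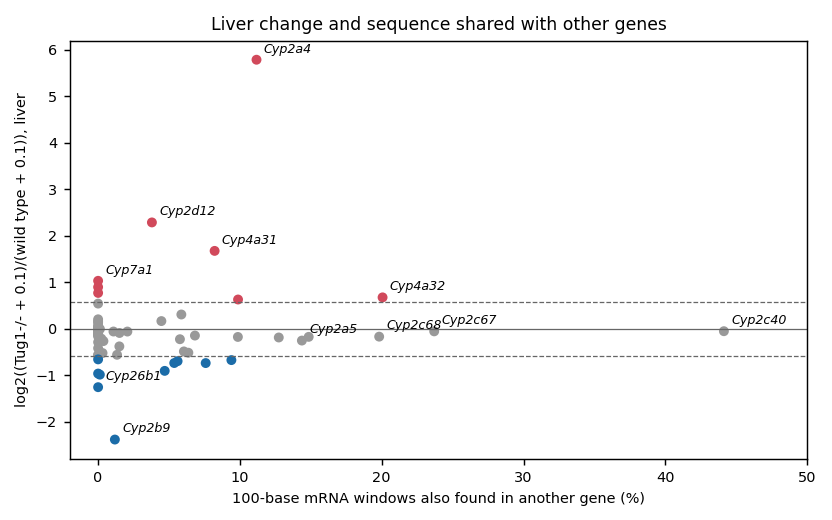
Percentage of 100-base mRNA windows that occur unchanged in a transcript of another gene (horizontal axis) and change in liver (vertical axis, log2 scale) for the 63 members with a mean of at least 1 FPKM; dashed lines mark 1.5-fold, red is higher and blue lower in the knockout. *Cyp2a4* lies at 11.2%, *Cyp2c40* at 44.1%, and *Cyp7a1* and *Cyp26b1* at 0.

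In the other tissues far fewer members were measured, from 10 in MEFs to 24 in eyes, and their summed level lay between 105 and 175 FPKM. *Cyp51*, *Cyp20a1* and *Cyp4f13* had a mean of at least 1 FPKM in all 7 tissues, and 20 members did not reach it in any. *Cyp2e1*, *Cyp26b1* and *Cyp2f2* were past the limit in more than 1 tissue.

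**Figure D4:**
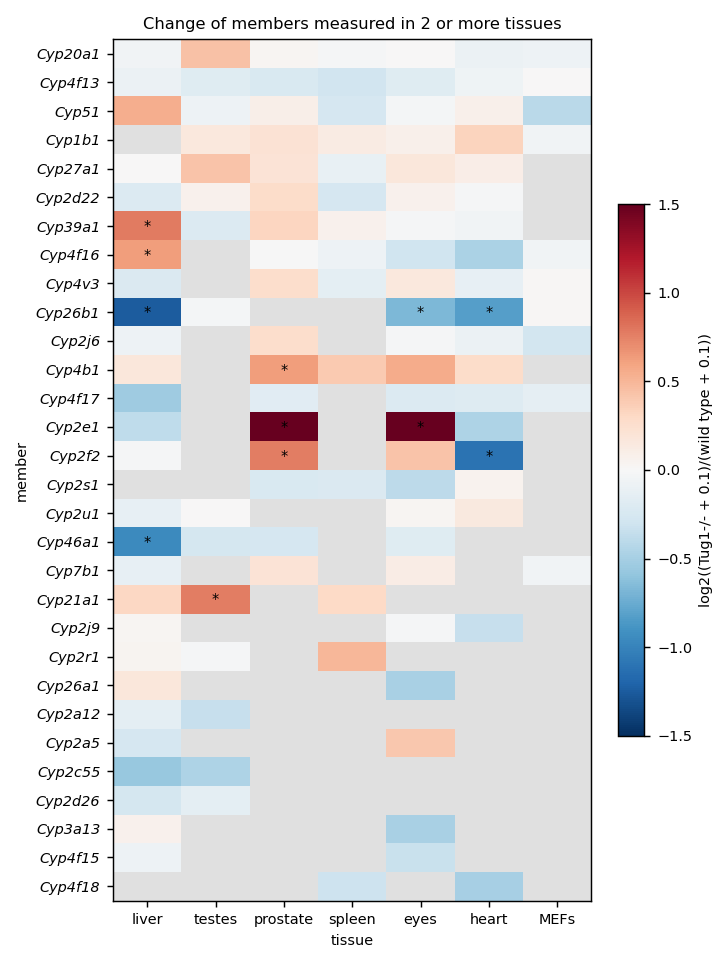
Change, log2((KO + 0.1)/(WT + 0.1)), of the 30 members with a mean of at least 1 FPKM in 2 or more tissues; rows are genes, columns are tissues, grey marks a mean under 1 FPKM, stars mark more than 1.5-fold, and colours stop at 1.5 in either direction. *Cyp26b1* is lower in liver, eyes and heart, and *Cyp2e1* is higher in prostate and eyes.

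In prostate, 5 of 19 measured members were higher in the knockout and none was lower, beside 2.4% and 0.682% of all genes. The median change was 0.22 for the members and -0.04 for all genes, and the knockout group had 2 samples. *Cyp2e1* was at 3.51 FPKM in wild-type against 23.6 FPKM in knockout prostate, 6.56-fold higher. *Cyp2f2* had 2.00 and 3.47 FPKM, and *Cyp4b1*, an enzyme of fatty acids and foreign amines, had 2.00 and 3.15 FPKM. *Cyp3a57* had 1.65 and 3.10 FPKM. *Cyp2j13* had 0.524 and 1.91 FPKM, so that it reached the minimum through the knockout value. The most abundant members, *Cyp4f13* at 23.7 and 20.2 FPKM and *Cyp20a1* at 19.9 and 20.4 FPKM, were within the limit, as were *Cyp51* at 9.24 and 9.80 FPKM and *Cyp7b1* at 7.73 and 8.90 FPKM.

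In eyes, 1 of 24 measured members was higher and 1 was lower, beside 2.64% and 0.867% of all genes. The median change was -0.01 for the members and -0.02 for all genes. *Cyp2e1* was at 9.54 FPKM in wild-type against 45.3 FPKM in knockout eyes, 4.71-fold higher. *Cyp26b1* was lower, with 3.76 and 2.31 FPKM. *Cyp2f2* had 24.1 and 32.6 FPKM, *Cyp51* 15.03 and 14.76 FPKM, *Cyp4f13* 9.10 and 8.01 FPKM and *Cyp2d22* 7.38 and 7.75 FPKM.

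Adipocyte markers differed beside *Cyp2e1*, which fat tissue also expresses, in prostate, eyes and heart. In prostate all 3 markers were past the limit and higher, and their sum was 39.5 FPKM in wild-type and 125 FPKM in knockout. *Adipoq*, which encodes the fat hormone adiponectin, had 3.93 and 15.5 FPKM there. In eyes all 3 were higher as well, with a sum of 87.0 and 276 FPKM, and *Adipoq* had 7.31 and 21.8 FPKM. In heart, where *Cyp2e1* had 19.0 and 13.7 FPKM, *Adipoq* and *Plin1* were lower, at 21.01 and 9.23 FPKM and at 9.81 and 4.23 FPKM, while *Fabp4* had 1392 and 1311 FPKM. In liver *Adipoq* was at 0.0240 FPKM in wild-type and listed at 0 in knockout, and *Plin1* was listed at 0 in both, while *Fabp4*, at 21.1 and 27.6 FPKM, lay higher in the knockout and *Cyp2e1* lower. In spleen the markers summed to 15.4 and 21.5 FPKM, with *Cyp2e1* at 0.583 and 0.420 FPKM. The blood gene *Hba-a1* was also higher in knockout eyes, at 20.4 and 60.4 FPKM, and in knockout prostate, at 17.6 and 29.3 FPKM. The part of these cells in the *Cyp2e1* values was not tested.

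**Figure D5:**
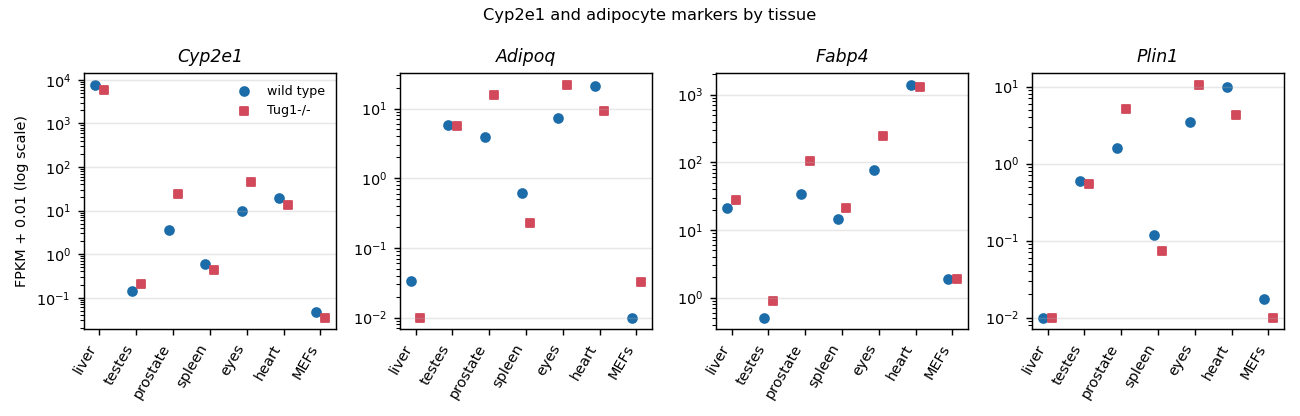
FPKM + 0.01 on log axes for *Cyp2e1* and the adipocyte markers *Adipoq*, *Fabp4* and *Plin1* in 7 tissues, with wild type as blue circles and *Tug1*-/- as red squares, 1 pooled value each. In prostate and eyes all 4 genes lie higher in the knockout, past the 1.5-fold limit. In heart all 4 lie lower, with *Adipoq* and *Plin1* past the limit and *Cyp2e1* and *Fabp4* within it.

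In heart, 2 of 19 measured members were lower and none was higher, beside 1.44% and 0.874% of all genes, and the median change was -0.09 for the members and 0.03 for all genes. *Cyp26b1* was at 2.88 FPKM in wild-type against 1.59 FPKM in knockout heart. *Cyp2f2* had 1.61 and 0.693 FPKM. The most abundant member was *Cyp4b1* with 19.5 and 23.5 FPKM, followed by *Cyp2e1*, and *Cyp27a1* had 13.0 and 14.0 FPKM, *Cyp2d22* 10.5 and 10.4 FPKM and *Cyp20a1* 8.49 and 7.99 FPKM. *Cyp26b1* was thus lower past the limit in liver, eyes and heart. It was at 7.22 and 7.09 FPKM in testes and at 1.95 and 1.97 FPKM in MEFs, within the limit in both.

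In testes, 1 of 16 measured members was higher and none was lower, beside 1.17% and 0.753% of all genes, with a median change of -0.05 for the members and -0.06 for all genes. *Cyp21a1*, the steroid 21-hydroxylase, was at 1.66 FPKM in wild-type against 2.91 FPKM in knockout testes. Of its 100-base windows 5.87% occur in the pseudogene *Cyp21a2-ps*. Markers of Leydig cells, the steroid-making cells of the testis, summed to 928 FPKM in wild-type and 1339 FPKM in knockout, with 4 of 4 changes above 0 and none past the limit, and their part in this value was not tested. *Cyp51*, at 41.9 and 39.8 FPKM, was the most abundant member, and *Cyp2d26* had 14.5 and 13.2 FPKM. *Cyp26b1*, *Cyp1b1* (4.63 and 5.17 FPKM) and *Cyp46a1* (4.93 and 4.09 FPKM) followed. *Cyp19a1*, the aromatase that makes estrogen, had 2.45 and 2.19 FPKM and reached the minimum in this tissue alone.

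In spleen none of 14 measured members was past the limit, beside 4.91% of all genes higher and 1.1% lower, and the median change was -0.09 for the members and -0.02 for all genes. *Cyp4f18*, a leukotriene hydroxylase of white blood cells, led with 34.1 FPKM in wild-type and 27.5 FPKM in knockout spleen. *Cyp1b1* had 13.6 and 14.8 FPKM, *Cyp27a1* 13.4 and 12.4 FPKM, *Cyp4f16* 11.9 and 11.3 FPKM and *Cyp4b1* 8.27 and 10.9 FPKM. In MEFs none of 10 measured members was past the limit, beside 0.975% higher and 2.2% lower, and the median change was -0.05 for the members and 0.00 for all genes. *Cyp51* was at 48.7 FPKM in wild-type against 36.9 FPKM in knockout MEFs. *Cyp1b1*, an aryl hydrocarbon receptor target of mesenchymal cells, had 35.0 and 33.7 FPKM, *Cyp20a1* 24.2 and 23.0 FPKM, *Cyp4f16* 11.8 and 11.4 FPKM and *Cyp4f17* 4.80 and 4.37 FPKM.

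The gene rows in which P450 members lie differed in their liver values. Rows were formed where neighbouring members lie within 500 kb of each other, and 7 rows held 3 or more members. In the Cyp2d row on chromosome 15 (82370528 to 82794245) 6 of 7 measured members had changes below 0 (5 of 7 after scaling to the sum), and the median was -0.17. In the row of chromosome 7 with the Cyp2a and Cyp2b genes (25802475 to 27166802) it was 7 of 8 (5 of 8 after scaling to the sum), with a median of -0.33, and *Cyp2a4* was the exception in the deposited values. The Cyp4a row of chromosome 4 (115106323 to 115647709) had 4 of 5 measured members above 0 under each scaling tried and a median of 0.21. It was the only row with a median above 0 in the deposited values. After scaling to the sum the Cyp2j and Cyp4f rows were above 0 as well, at 0.08 and 0.07. Both lay below the median of all liver genes under that scaling, 0.14, while the Cyp4a row was at 0.36.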

How the data were processed

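RNA-seq of 7 tissues was analysed from 1 deposited table. Per the labels, libraries were made with the TruSeq RNA kit, whose standard protocol does not keep strand, and CASAVA 1.8.2, TopHat2 and Cuffdiff on mm10 are named in the submitters' processing notes. The study's methods describe another route, from counts. The FPKM values, 1 per gene, genotype and tissue, had been computed by the authors from pooled samples; the unit follows from the Cuffdiff layout, since the header does not name it. The authors' fold changes, test statistics, p-values and calls in the same table were not used. A tissue with no sample in the labels (26653 rows) was not analysed here.

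Change was log2((KO + 0.1)/(WT + 0.1)). Members and all genes with a mean of at least 1 FPKM were counted where they differed by more than 1.5-fold. Depth and replicate spread are unknown, so no test was made. Named were, in liver, every member past the limit and the 15 with the highest mean, in other tissues the 5 highest and those past the limit, and from each gene list those past the limit and 1 or 2 others. *Cyp11a1*, *Hsd3b1*, *Cux2*, *Dbp*, *Hba-a1* and the near copies of changed members were named after their values were seen. Members and lists were chosen with earlier results of these data known. Positions are those of the table (mm10, counted from 1), all 89 members were matched to GENCODE vM21 by gene ID, and 44 had the same ends there. Coding sequences were aligned with Biopython 1.88, and counting was tested on simulated data. Python 3.11.15, numpy 2.4.6, pandas 2.3.3 and matplotlib 3.10.9 were used. Alternatives were pseudocounts of 1 and 0.01, no minimum or 5 FPKM, a limit of 2-fold, scaling to the sum and centring on the median. Scaling to the sum without genes of failed status was chosen after seeing the data.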

Additional observations from a re-analysis of the deposited data

How the results depend on the processing

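No paired analysis was possible because the table holds 1 value per genotype and tissue, and leaving out samples was not run for the same reason. The 8 alternatives gave 112 counts of members past the limit, and 90 stayed within 1.5 times the value reported. Part of these 90 was fixed beforehand, since a count of 0 stays 0 under a higher limit, a higher minimum or a larger pseudocount. With a pseudocount of 1 the count was 0 for testes, higher, 3 for prostate, higher, and 0 for eyes, lower. Without the minimum, lower counts were 1 in testes, 1 in prostate, 5 in spleen, 3 in eyes and 2 in MEFs, and higher counts were 2 in eyes and 1 in heart. With a minimum of 5 FPKM, liver had 5 lower members, prostate 1 higher, testes 0 higher, and eyes and heart 0 lower. With a limit of 2-fold, liver had 4 higher and 2 lower members, prostate 2 higher, testes 0 higher, eyes 0 lower and heart 1 lower. Scaled to the sum of all values, liver had 6 lower members instead of 10 and 9 higher instead of 8, with the median of all genes at 0.14. *Cyp2c50* (-0.51), *Cyp2c54* (-0.58), *Cyp3a59* (-0.54) and *Cyp8b1* (-0.50) then fell within the limit, and *Cyp51* (0.70) passed it. With the 31 genes of failed status left out of the sum, it had 9 higher and 10 lower members and a median of 0.04. The cause of these shifts was not tested. Of the 28 named differences past the limit, each of 1 member in 1 tissue, 18 fell short of 2-fold. A mean of 5 FPKM was not reached by 14 of them. With a pseudocount of 1, 6 fell within the limit, and with scaling to the sum 4 did. That none turned its direction is no test of them. A pseudocount, minimum or limit cannot turn a direction, and the scalings moved changes by less than the limit. What limits every value is the missing spread between samples, above all for members near 1 FPKM and for copies that share reads.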
